A study of Mus musculus with 2 samples.

Results

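miR-221 and miR-222 are a pair of closely related microRNAs (miRNAs) made from neighbouring hairpins, and each hairpin gives a 5p and a 3p arm. The 4 mature forms were taken by name from the deposited tables, and all 4 of the 1976 mature miRNAs listed were found in each table. The tables hold small RNA sequencing of exosomes, membrane vesicles released by cells with RNA inside. The M1 exosomes came from bone marrow-derived macrophages treated with IFN-γ at 20 ng/mL for 1 day. The M2 exosomes came from the same kind of cells treated with IL-4 at 20 ng/mL for 1 day. Both cultures were grown from marrow of C57BL/6 mice aged 5 to 6 weeks, in 10 ng/mL M-CSF over 7 days before the cytokine and 2 days in serum-free medium after it. No untreated culture is among the groups, so a difference between M1 and M2 exosomes cannot be assigned to either cytokine. Each group has 1 library, so no value has a replicate error, no test was made, and every difference compares 2 libraries and not the conditions. The number of animals or dishes behind a library is not given in the sources used here.

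A mature miRNA guides a silencing complex to messenger RNAs that pair with its seed, the bases 2 to 8 from its 5′ end. Of the arms cut from a hairpin, the one that is loaded more often is called the guide and the other the passenger. miR-221 and miR-222 are processed from a shared primary transcript, and their 3p arms are the guides in most tissues. They are best known for repressing Cdkn1b, which encodes the cell cycle inhibitor p27, and Kit, the receptor of stem cell factor. In mouse macrophages they accumulate on long exposure to lipopolysaccharide and repress Smarca4, which encodes the chromatin remodeller Brg1. They are also studied in endothelial cells and vascular smooth muscle, so they are not specific to macrophages.

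The mature sequences are shown because the 3p arms share a seed and the 5p arm does not. RefSeq (GRCm38.p6) held a mature sequence for 3 of the 4 members, and the capitals mark the seed. miR-1928 is shown with them as the only other miRNA found with the seed of one of these 3 members. The search covered the 1677 of 1976 listed miRNAs that have a RefSeq mature sequence.
mmu-miR-221-3p: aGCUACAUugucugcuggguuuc
mmu-miR-222-3p: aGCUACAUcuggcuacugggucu
mmu-miR-1928: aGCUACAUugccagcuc
mmu-miR-221-5p: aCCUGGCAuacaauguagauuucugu

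The 3p arms of miR-221 and miR-222 were identical over their first 8 bases. Beyond the seed they differed, and 5 single-base edits turned one 23-base sequence into the other. Each was the closest relative of the other among the 1678 other mature sequences in the table. For miR-221-5p, a 26-base sequence, the closest sequence was 8 edits away.

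The hairpins show where the arms sit, with capitals for each arm that has a mature sequence in RefSeq. The sequences run 5′ to 3′ on the minus strand of chromosome X.
Mir221, chrX:19146294-19146388: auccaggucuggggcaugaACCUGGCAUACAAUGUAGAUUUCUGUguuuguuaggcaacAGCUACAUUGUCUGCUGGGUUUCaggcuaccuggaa
Mir222, chrX:19146893-19146971: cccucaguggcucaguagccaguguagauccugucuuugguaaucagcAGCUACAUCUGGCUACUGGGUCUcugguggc

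The hairpins of Mir221 and Mir222 are 504 bases apart, on GRCm38, the assembly called mm10. On the minus strand Mir222 comes first. No other RefSeq gene overlapped the stretch from one hairpin to the other, and GENCODE M21 listed only the 2 miRNA genes there. The next RefSeq gene upstream was the long non-coding RNA Gm14636, 9.5 kb away. On the other side the next gene was the pseudogene Gm5383, 203 kb away. Each of the 3 sequences came from 1 hairpin in RefSeq, so neither 3p arm has a second gene copy there whose reads could not be told apart.

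The deposited values are on a log2(level + 1) scale, where the level is in arbitrary units. The 3p arms were abundant in both libraries, and all 4 members were detected in both. miR-221-3p, the guide of miR-221, had a value of 15.52 in M1 exosomes, against 15.24 in M2 exosomes. miR-222-3p, the guide with the same seed, had 13.38 in M1 exosomes, against 12.85 in M2 exosomes. miR-221-5p, the passenger arm of miR-221, had 11.22 in M1 exosomes, against 11.38 in M2 exosomes. The order of the members was therefore miR-221-3p, miR-222-3p, miR-221-5p and miR-222-5p in each library. The passenger arm miR-222-5p was the lowest, at 6.61 in M1 exosomes, against 7.13 in M2 exosomes.

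**Figure D1:**
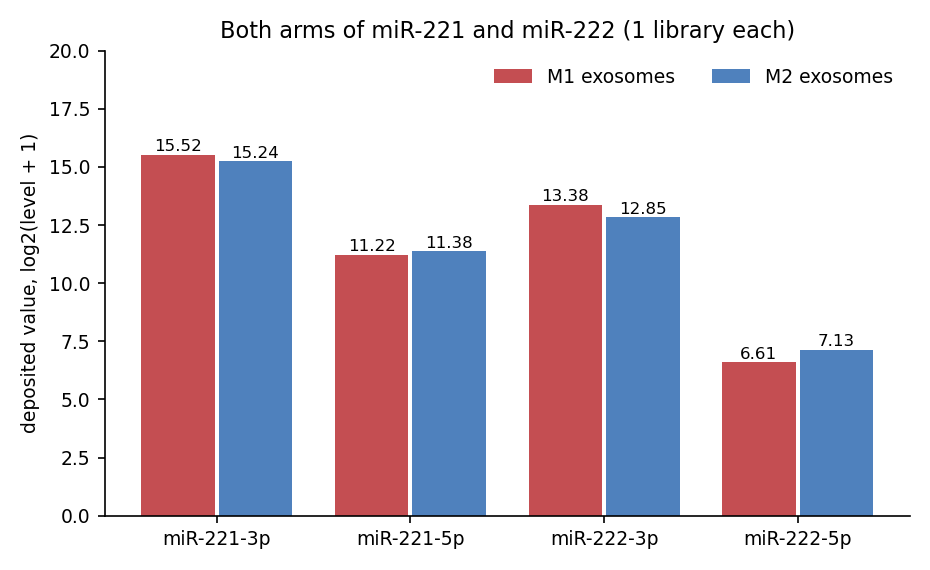
Deposited value, log2(level + 1), of each arm of miR-221 and miR-222 in the M1 exosome library (left bar of each pair) and the M2 exosome library (right bar). Each bar is 1 library with no replicate. The 3p arms are a little higher in M1 exosomes and the 5p arms a little higher in M2 exosomes.

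As levels, miR-221-3p reached 47052 units in M1 exosomes, against 38751 units in M2 exosomes. That was 6.86% of the summed level of all miRNAs in M1 exosomes, against 5.27% in M2 exosomes. miR-222-3p made up 1.55% of the level in M1 exosomes, against 1.00% in M2 exosomes. The arms together held 8.77% in M1 exosomes, against 6.66% in M2 exosomes. Most of it was 1 arm, since miR-221-3p was 78.2% of the members' summed level in M1 exosomes, against 79.2% in M2 exosomes. How readily each miRNA is captured by the library kit was not measured here, so levels of different miRNAs are those of the libraries and not molar amounts in exosomes.

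miR-221-3p ranked 4th of all miRNAs in M1 exosomes and 7th in M2 exosomes. In M1 exosomes it stood just below miR-27b-3p, at 15.55, and above miR-99a-5p, at 15.28. In M2 exosomes it stood between miR-21a-5p, at 15.47, and let-7i-5p, at 15.08. Without replicates it is unknown whether any of these neighbours differ beyond their spread. miR-222-3p ranked 15th in M1 exosomes, between miR-27a-3p at 13.59 and let-7g-5p at 13.27. In M2 exosomes miR-222-3p ranked 20th, between let-7a-5p at 12.92 and miR-29a-3p at 12.72. The passenger arm miR-221-5p was as abundant as many guides, at rank 35 in M1 exosomes, against 31 in M2 exosomes. In M1 exosomes it lay next to miR-155-5p, an inflammatory miRNA of macrophages, which had 11.25. miR-222-5p ranked 151st in M1 exosomes and 139th in M2 exosomes.

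**Figure D2:**
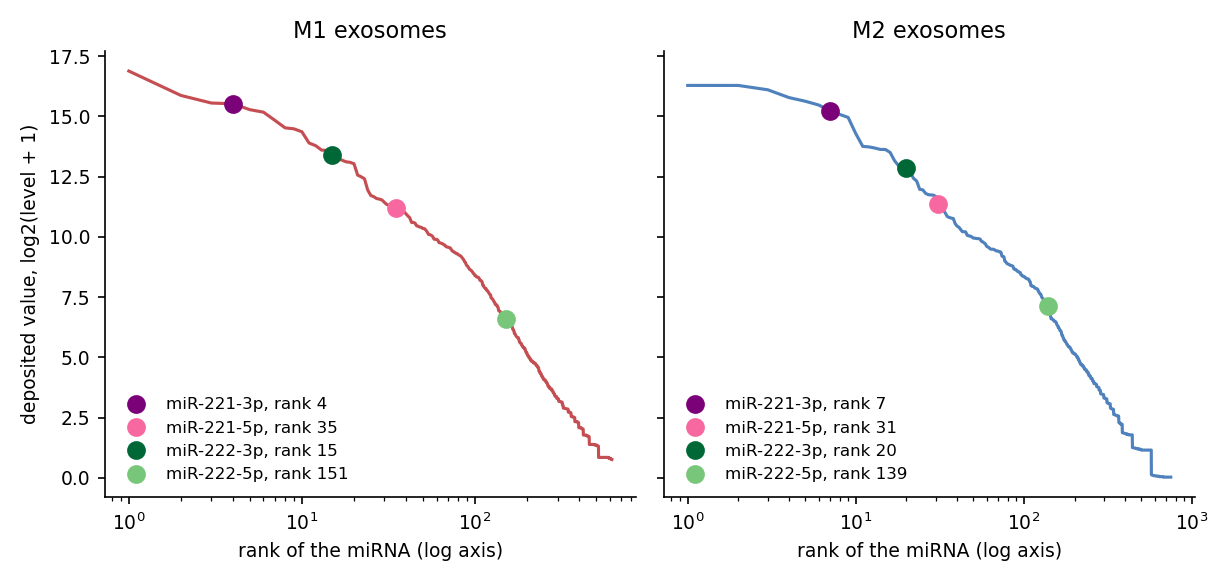
Deposited value, log2(level + 1), of every miRNA above 0 against its rank on a log axis, in M1 exosomes (left) and M2 exosomes (right), with the members as points. miR-221-3p sits at rank 4 in M1 exosomes, against 7 in M2 exosomes, and miR-222-5p at 151 in M1 exosomes, against 139 in M2 exosomes.

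Differences between the libraries were small for all members. miR-221-3p was 1.21-fold higher in M1 exosomes, a log2 ratio of 0.28 for M1 over M2. miR-222-3p was 1.45-fold higher in M1 exosomes, with a log2 ratio of 0.53. The passenger arms had ratios of the opposite sign. miR-221-5p had a log2 ratio of -0.16, or 1.12-fold higher in M2 exosomes. miR-222-5p had -0.52, or 1.43-fold higher in M2 exosomes. The sign of the ratio of miR-221-5p turned to 0.12 when each library was divided by its sum without miR-146a-5p, which is the most abundant miRNA of M1 exosomes. That scaling moves the ratios of all abundant miRNAs alike, and it moved the median of all ratios by 0.27.

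A difference of at least 2-fold was taken as a call, among miRNAs that reached a level of 10 units in at least 1 library. Of the 337 miRNAs compared, 165 were called, or 49.0%, 88 on the M1 side and 77 on the M2 side. With the sums taken without miR-146a-5p, 107 calls were on the M1 side and 56 on the M2 side. None of the 4 members was called, in either direction, and none passed 1.5-fold as deposited, which 66.8% of the compared miRNAs did. With each library divided by its sum, miR-222-3p passed 1.5-fold, at a log2 ratio of 0.63. It also did without miR-146a-5p in the sums, at 0.81, and miR-222-5p did without the 10 most abundant miRNAs in the sums, at -0.59. The median log2 ratio was 0.06 over the members and 0.04 over all miRNAs compared. The ratios spanned -0.52 to 0.53 in the members and -5.12 to 5.23 over all compared. The widest ratios belong to low miRNAs, and the members are not low. Among the 154 miRNAs whose mean level was 100 units or more, all members included, 41.6% were called. Of these 154 miRNAs, 16.9% had a ratio closer to 0 than miR-221-3p and 35.1% had one closer to 0 than miR-222-3p. Among the 20 most abundant miRNAs by mean level, which include both 3p arms, 2 calls were on the M1 side, miR-146a-5p and miR-122-5p. The 5 calls on the M2 side were miR-99a-5p, let-7j, miR-148a-3p, let-7f-5p and miR-23a-3p, and 13 were not called. The members are thus not alone among abundant miRNAs in lying within 2-fold.

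**Figure D3:**
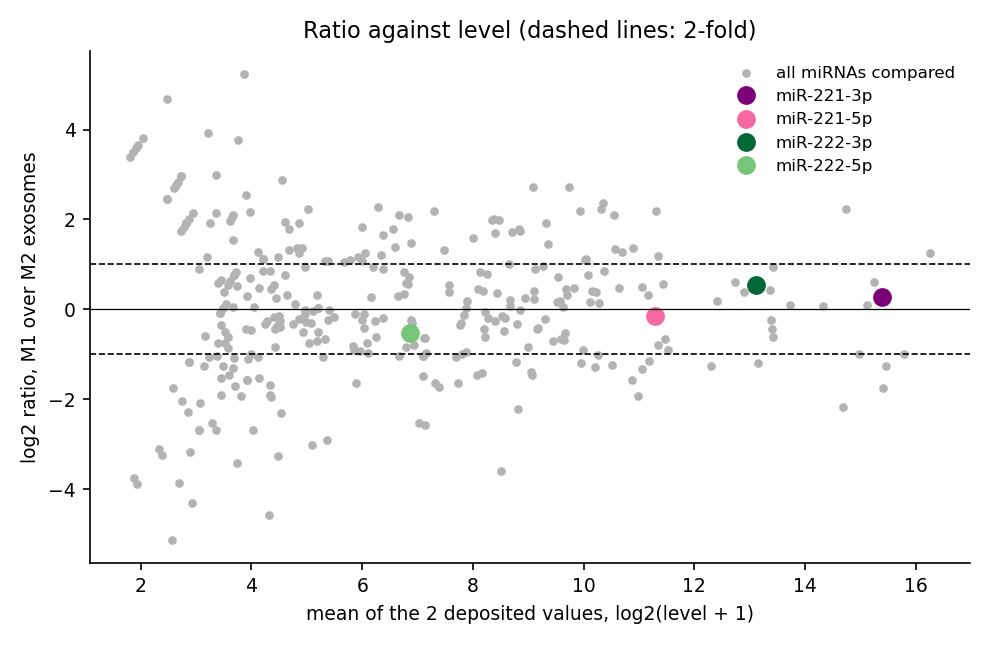
Log2 ratio of M1 over M2 exosomes against the mean of both deposited values, for the 337 miRNAs compared (grey) and the members (coloured). The dashed lines mark a 2-fold difference, and all 4 members lie between them, from -0.52 to 0.53.

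The ratio of the arms of a hairpin is taken within a library, so a single factor between the libraries cancels from it. The 3p arm of miR-221 was 19.8-fold above its 5p arm in M1 exosomes, against 14.6-fold above it in M2 exosomes. The 3p arm of miR-222 was 109-fold above its 5p arm in M1 exosomes, against 52.6-fold above it in M2 exosomes. The 3p arm thus held 95.2% of the level of both miR-221 arms in M1 exosomes, against 93.6% in M2 exosomes. For miR-222 the share was 99.1% in M1 exosomes, against 98.1% in M2 exosomes.

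Both arm ratios were higher in M1 exosomes. The difference was 0.44 on the log2 scale for miR-221, or 1.35-fold. It was 1.05 for miR-222, or 2.08-fold, just past the 2-fold line. Of the 144 hairpins with both arms listed and at least 1 arm at 10 units or more in both libraries, 63 had an arm ratio that differed at least 2-fold, or 43.8%. In 39 of these hairpins 1 arm was listed at 0 in both libraries, so that their value is that of the other arm alone. Of the 42 hairpins with both arms at 10 units or more in both libraries, 16 differed at least 2-fold, or 38.1%. Among these 42, the difference was smaller in size than that of miR-222 in 26 and smaller than that of miR-221 in 10. The median difference, with its sign, was 0.42 over these 42 hairpins and 0.25 over all 144. A higher arm ratio in M1 exosomes was therefore not particular to these hairpins, and the value of miR-221 lay near the median of the 42. As deposited, the value of miR-222 came in like parts from the higher 3p arm and the lower 5p arm in M1 exosomes. That split depends on the scaling between the libraries. With the sums taken without miR-146a-5p, the log2 ratio was 0.81 for miR-222-3p and -0.25 for miR-222-5p. The arm difference of miR-222 dropped to 0.76 when each arm was set against the 50 compared miRNAs nearest to it in level. That is under the 2-fold line, and the centring allows for a shift between the libraries that changes with level. The same centring gave 0.64 for miR-221.

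**Figure D4:**
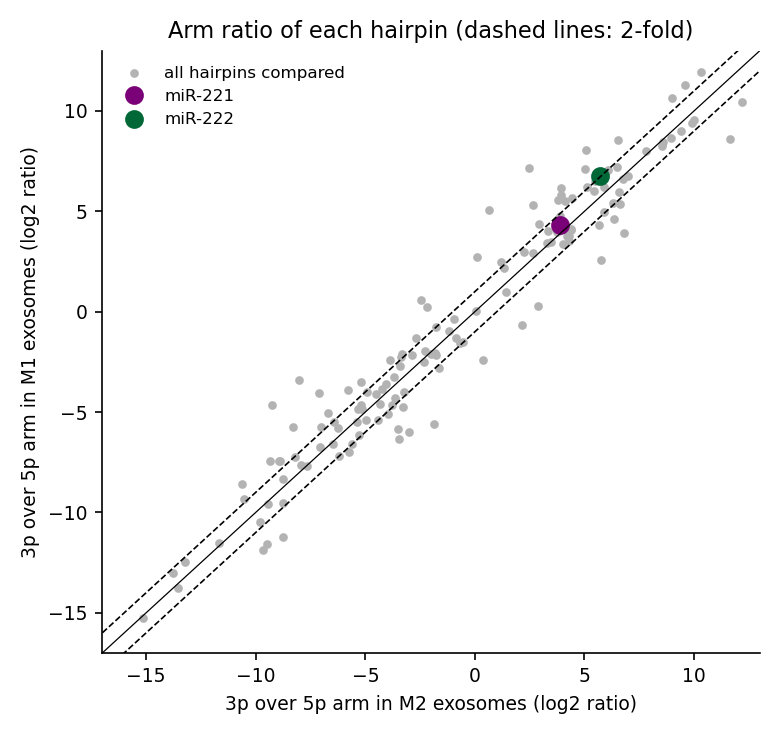
Log2 ratio of the 3p arm over the 5p arm in M1 exosomes (vertical) against the same in M2 exosomes (horizontal) for 144 hairpins. The solid line marks equal ratios and the dashed lines a 2-fold difference; miR-221 lies inside the band, 0.44 above the solid line, and miR-222 at its upper edge, 1.05 above it.

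How far the low arm limits the precision of the miR-222 value is not known, with 1 library per group. The worth of 1 read was taken from the even steps in level of miRNAs below 0.1 units in the other library. It was 0.80 units in M1 exosomes, against 1.22 units in M2 exosomes. miR-222-5p was above 0.1 units in both libraries. If that worth held for it too, it would rest on about 121 reads in M1 exosomes, against 114 reads in M2 exosomes. Whether that worth held for miR-222-5p was not tested, so no counting interval is given. The total number of reads per library is not known.

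The paralogs were also set against each other arm by arm. miR-221-3p was 4.42-fold above miR-222-3p in M1 exosomes, against 5.26-fold above it in M2 exosomes. miR-221-5p was 24.4-fold above miR-222-5p in M1 exosomes, against 19.0-fold above it in M2 exosomes. The excess of miR-221 was thus larger in the 5p arms than in the 3p arms in each library. Between the libraries these ratios differed by -0.25 on the log2 scale for the 3p arms and by 0.36 for the 5p arms, M1 minus M2.

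Other neighbouring hairpins give a scale for that difference. The comparison was chosen after the members' values were seen, and used pairs of hairpins within 10 kb on the same strand. Each hairpin stood for its more abundant arm. In 17 hairpins that arm had no RefSeq sequence tied to a single hairpin while a less abundant arm did, and these were left out. Hairpins with no compared arm that had such a sequence were also left out, and were not counted. The log2 ratios of miR-221-3p and miR-222-3p differed by 0.25. In the 58 other pairs, which share hairpins, are not independent and were not matched on level, the difference had a median of 0.99 and ran from 0.01 to 3.65. The pair of miR-221 and miR-222 stood 8th of 59 from the smallest difference.

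Summed over the miRNAs with the seed GCUACAU, the level was 57706 units in M1 exosomes, against 46116 units in M2 exosomes. That was 8.41% of the library in M1 exosomes, against 6.28% in M2 exosomes, with a log2 ratio of 0.32. Among the seeds of the 1677 listed miRNAs with a RefSeq mature sequence, it ranked 4th in M1 exosomes and 6th in M2 exosomes. Those miRNAs made up 85.3% of the level in M1 exosomes, against 94.3% in M2 exosomes. miR-122-5p, which was not among them, alone held 8.71% in M1 exosomes, against 1.72% in M2 exosomes. The seed of miR-146a-5p and miR-146b-5p held the most in M1 exosomes, 18.9%, against 8.74% in M2 exosomes. The let-7 seed held the most in M2 exosomes, at 11.2% in M1 exosomes, against 17.7% in M2 exosomes. The third carrier of GCUACAU, miR-1928, hardly contributed, with a value of 1.35 in M1 exosomes, against 1.82 in M2 exosomes. These values would equal 1.93 reads in M1 exosomes, against 2.06 reads in M2 exosomes, if the worth of 1 read given above held for miR-1928. Whether it held was not tested, and at so low a level the ratio of miR-1928 is not read.

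The miRNAs closest to each 3p arm were found by the Euclidean distance of the deposited values over the 2 libraries. With only 2 libraries, likeness means a similar level in each and nothing more. Closest to miR-221-3p were miR-27b-3p at a distance of 0.29 and let-7i-5p at 0.38. The next were miR-21a-5p, miR-99a-5p and miR-148a-3p, at 1.07, 1.07 and 1.10. Closest to miR-222-3p were miR-29a-3p at 0.32 and miR-27a-3p at 0.37, then miR-30d-5p, miR-25-3p and let-7g-5p at 0.52, 0.54 and 0.66.

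Other miRNAs that inflammatory signals induce in macrophages had log2 ratios from -3.61 for miR-9-5p to 2.71 for miR-147-3p, a wider span than that of the members. Of 8 such miRNAs 7 were compared, and their median log2 ratio was -0.24. A difference of 2-fold or more was on the M1 side for 3 of them, miR-155-5p, miR-146a-5p and miR-147-3p, and on the M2 side for 1, miR-9-5p. The other 3 stayed under it. For scale, 49.0% of all 337 miRNAs compared were called. The most abundant, miR-146a-5p, a brake on NF-κB signalling, showed a ratio of 1.25 on the log2 scale. miR-21a-5p, a broadly expressed miRNA of activated cells, had -0.99, miR-146b-5p, the paralog of miR-146a-5p, had -0.62 and miR-155-5p had 1.35. miR-212-3p was listed at 0 in both libraries.

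The other miRNAs whose hairpins all lie on chromosome X were mixed as well. They numbered 153, of which 7 were placed by the name of their hairpin. Of these 153, 31 were compared, and their median log2 ratio was -0.20. The 6 calls on the M1 side were miR-421-3p, miR-450b-5p, miR-503-5p, miR-7093-3p, miR-224-5p and miR-363-3p, of which the last 3 lay near the worth of 1 read in M2 exosomes. The 5 calls on the M2 side were miR-351-5p, miR-374b-5p, both arms of miR-362 and miR-322-5p, which was listed at 0 in M1 exosomes. The other 20 were not called. Over all 337 miRNAs compared, 165 were called, or 49.0%, on both sides, so a mix of calls is not particular to this list. The most abundant by mean level were miR-532-5p at a log2 ratio of -0.66, miR-361-3p at 0.84, miR-374b-5p at -1.20 and miR-652-3p at -0.52. The summed level of all 153 was 1.37% of the library in M1 exosomes, against 1.65% in M2 exosomes, below miR-221-3p alone in each.

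Markers of macrophages and of other cells were both present. All 6 myeloid miRNAs checked were above 0 in each library and together held 21.5% of the level in M1 exosomes, against 13.4% in M2 exosomes. Most of that was miR-146a-5p, with 17.6% in M1 exosomes, against 6.89% in M2 exosomes. Of the other members miR-155-5p and miR-142a-5p were also higher in M1 exosomes, while miR-223-3p, miR-142a-3p and miR-21a-5p had negative log2 ratios of -0.69, -1.07 and -0.99. Of these 6, miR-155-5p, miR-146a-5p and miR-21a-5p are also on the list of induced miRNAs. The 4 erythroid miRNAs (miR-451a, both arms of miR-144 and miR-486a-5p), all above 0, held 0.76% in M1 exosomes, against 0.12% in M2 exosomes. The 3 hepatocyte miRNAs (miR-122-5p, miR-192-5p and miR-194-5p), all above 0, held 8.78% in M1 exosomes, against 1.78% in M2 exosomes, nearly all of it miR-122-5p. The 4 stromal miRNAs (both arms of miR-199a, miR-214-3p and miR-10b-5p), all above 0 but with miR-214-3p below the worth of 1 read in M2 exosomes, held 0.58% in M1 exosomes, against 0.14% in M2 exosomes. The 4 endothelial and vascular miRNAs (both arms of miR-126a, miR-143-3p and miR-145a-5p), from tissues where miR-221 and miR-222 are also known, held 0.20% in M1 exosomes, against 0.15% in M2 exosomes. Each of these sums was higher in M1 exosomes, as were both 3p arms, while both 5p arms were lower there. In each sum 1 miRNA held most of the level in each library. These were miR-146a-5p, miR-486a-5p, miR-122-5p, miR-10b-5p and miR-126a-3p, in the order of the lists above. Among the endothelial and vascular miRNAs, miR-143-3p went the other way, at a log2 ratio of -0.33. The part of other cells in the members' values was not tested. In such bulk samples a change in the number of vesicles of a cell type and in the RNA per vesicle cannot be told apart.

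**Figure D5:**
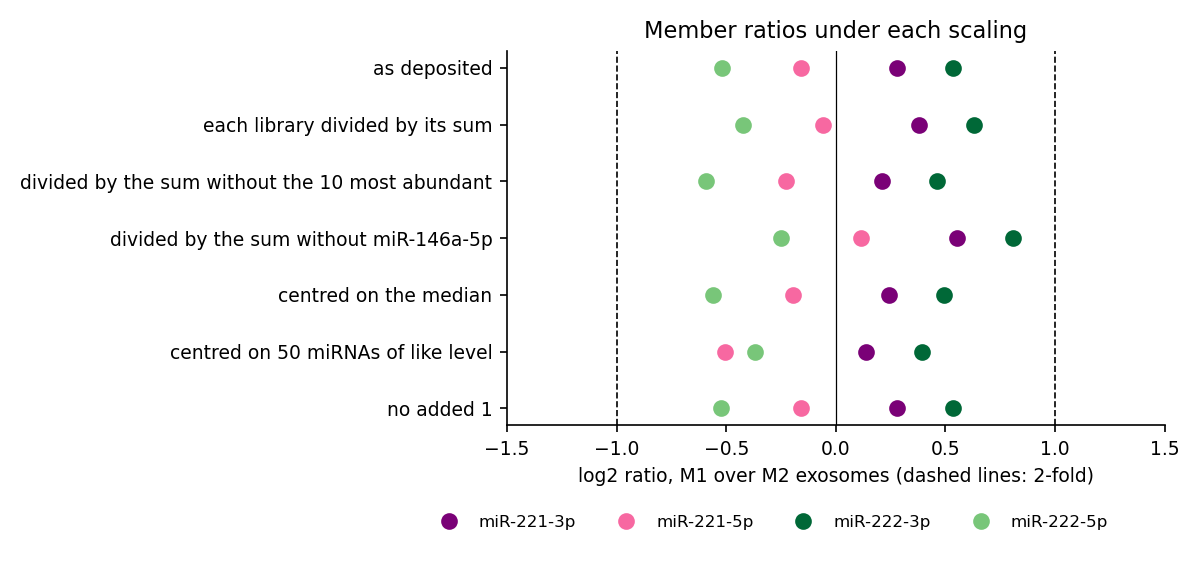
Log2 ratio of M1 over M2 exosomes for each member as deposited and under 6 other settings, with dashed lines at 2-fold. No point passes 2-fold, both 3p arms stay above 0, miR-222-5p stays below 0 and miR-221-5p runs from -0.50 to 0.12.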

How the data were processed

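Library preparation used a NEBNext small RNA kit and 500 ng of Trizol-extracted RNA per sample, per the labels' protocols. The submitters' processing notes name Bowtie2, bedtools and mm10, with neither versions nor roles. Neither the labels nor the file headers state how reads were assigned to arms, whether strand was used or which normalization was applied. Each library has 1 log2 value per mature miRNA, as the authors deposited it. The scale was read from levels (2 to the power of the value, minus 1) of miRNAs below 0.1 units in the other library. They fell on even steps taken as 1 read. Whole multiples within 0.1 step made up 99.4% of 175 such miRNAs in M1 exosomes and 95.3% of 129 in M2 exosomes. The lowest levels of other miRNAs could lie off these steps, such as 0.70 units for miR-301b-3p in M1 exosomes. Some M2 values below 1 read moved with the M1 value, so the libraries were treated as normalized together, and a change shared by most miRNAs could be hidden.

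Ratios are differences of deposited values, M1 minus M2, computed for all 1976 miRNAs with Python 3.11.15, numpy 2.4.6 and pandas 2.3.3. Folds are on the log2(level + 1) scale, with a pseudocount of 1. The calling step was run on simulated data with planted changes larger than the 2-fold call and no spread between libraries beyond counting. That run checks the code and cannot tell how many calls between 2 libraries without replicates are false. Sequences and positions are from RefSeq (GRCm38.p6). Named miRNAs are the members, miRNAs with a member's seed, the 5 nearest to each 3p arm in both values, neighbours in the order of levels and at most 4 per list by mean level. Others, such as miR-122-5p, were named after their values were seen. The members and lists were chosen with earlier results of these data known. Alternatives were other scalings, minimums and folds, and no added 1.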

Additional observations from a re-analysis of the deposited data

How the results depend on the processing

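No paired analysis was possible because there is only 1 library per group, which also means that none could be left out. The 4 member ratios stayed within 2-fold under every scaling, minimum and pseudocount tried. A minimum only chooses which miRNAs are compared and cannot change a ratio. The added 1 is small beside the members' levels, so only the scalings could move these ratios by much. The ratio of miR-221-3p ran from 0.14 to 0.55 and that of miR-222-3p from 0.39 to 0.81, while that of miR-222-5p ran from -0.59 to -0.25. That of miR-221-5p ran from -0.50, against the 50 miRNAs of like level, to 0.12. The median over the members ran from -0.12 to 0.33 and was -0.0086 with the 10 most abundant miRNAs left out of the sums, a scaling that moves all ratios alike. Division by the sum without miR-146a-5p, chosen after seeing the data, gave 0.55 for miR-221-3p, 0.12 for miR-221-5p, 0.81 for miR-222-3p, -0.25 for miR-222-5p and 0.33 for the median. The arm ratio difference of miR-222 was 1.06 without the added 1, and 0.76 with each arm centred on miRNAs of like level, a setting also chosen after seeing the data. The number of hairpins called for the arm ratio, 63 of 144, was 36 of 85 with a minimum of 100 units for 1 arm and 16 of 42 with 10 units for both arms, since fewer hairpins were compared. Over all miRNAs, the 88 calls on the M1 side and 77 on the M2 side became 201 and 229 with no minimum, 37 and 33 with a minimum of 100 units, and 55 and 37 with the minimum in both libraries.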
